A study of Caenorhabditis elegans with 4 samples.

Results

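The left arm of chromosome III was examined for binding of T09A5.8 in Caenorhabditis elegans, and it held 257 of the 3117 sites found along the genome. Overlapping ChIP-seq peaks were merged, and a merged span that held at least 1 peak of each of 2 replicates was taken as a site. A site belonged to the arm when its midpoint lay between 500001 and 4594582 on chromosome III (build WS220), which is the leftmost of 3 equal parts of the chromosome without its terminal 500 kb. The interval made up 4.08% of the length of the 6 chromosomes and held 8.25% of the sites. Of the 610 sites on chromosome III, 42.1% lay in it.

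The animals were hermaphrodites of the strain fem-2(b245), kept at 20 °C, which the labels stage as young adults with a germline and whose growth protocol describes the harvest of gravid adults. The genotype label places the fem-2 allele on chromosome III, so every library carried a mutation on the chromosome described here. The product of fem-2 is a phosphatase that acts in sex determination. The T09A5.8 ChIP group had 2 libraries made with an affinity-purified rabbit polyclonal antibody, SDQ4501, and the input group had 2 libraries, which were not used here. Extracts came from whole animals, so any tissue could contribute to a peak, and the lists do not tell tissues apart. No label says that the replicates came from separate cultures, and the spread between them may be technical. The lists used here held no read counts, so depth was unknown. No library from animals without T09A5.8 was used here.

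T09A5.8 carries the symbol cec-3 in the gene names of RefSeq and is a chromodomain protein. Chromodomains are small folds that hold methylated lysines of histone tails, and CEC-3 is known as a reader of methylated histone H3 lysine 9, a mark of silenced chromatin. In C. elegans the autosome arms are rich in repeats and in this mark and recombine often, whereas the centres are rich in conserved and widely expressed genes. The chromosomes have no single centromere, so arm and centre are names for parts of their length.

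Sites covered close to 1 base in 3 of the arm. Of the 4.09 Mb of the interval, 1.31 Mb lay in sites, or 32.1%. Replicate 1 had 331 peaks there and replicate 2 had 321, a mean of 326 ± 7.07 (SD, n = 2). Peaks covered 32.427% of the bases in replicate 1 and 32.429% in replicate 2, so the replicates covered nearly equal lengths. The bases covered were also largely shared, since 90.5% of the peak bases of each replicate lay in peaks of the other. The series-level list, another set of peaks that the authors deposited for the study as a whole, covered 32.4% of the interval with 1320 peaks.

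The sites were not spread evenly along the arm. The outer part, from 500001 to the end of the first of 4 equal parts of the chromosome at 3445936, held 233 of the 257 sites, and the inner part, from there to the inner limit of the interval, held 24. Peaks covered 42.7% ± 0.271 of the outer part and 6.20% ± 0.698 of the inner part (SD, n = 2). The inner part was thus covered about as thinly as the centre of the chromosome, where peaks covered 5.37% ± 0.292 of the bases. The outer part had 79.1 sites per Mb and the inner part 20.9. Sites in the outer part had a median width of 3280 bp and median scores of 734 in replicate 1 and 1099 in replicate 2. Sites in the inner part had a median width of 2030 bp and median scores of 322 and 526 in replicates 1 and 2. The score is a value per peak given by the authors without a definition. It was used here to describe peaks, to rank them within a list and to set the replicates side by side. With depth unknown, ratios of scores between the replicates are descriptions only. A site took the highest score of its peaks in each replicate.

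In windows of 100 kb, the share of bases in sites ran from 0% to 93.3% with a median of 26.7%. The 3 most covered windows were 1800001 to 1900000 with 93.3%, 1900001 to 2000000 with 82.7% and 1100001 to 1200000 with 79.3% of bases in sites. In the first of these, peaks covered 92.3% of the bases in replicate 1 and 93.0% in replicate 2. The 3 least covered windows lay at the inner end, with 0% from 4400001 to 4500000, 1.69% from 3900001 to 4000000 and 2.39% from 4300001 to 4400000. The change along the arm was not gradual. The window from 3400001 to 3500000 had 25.4% of its bases in sites and the next, from 3500001 to 3600000, had 4.72%, and no window further in exceeded 10.6%. Dense windows also stood beside sparse ones within the outer part, as with 82.7% from 1900001 to 2000000 followed by 24.6% from 2000001 to 2100000 and then 77.0% from 2100001 to 2200000.

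**Figure D1:**
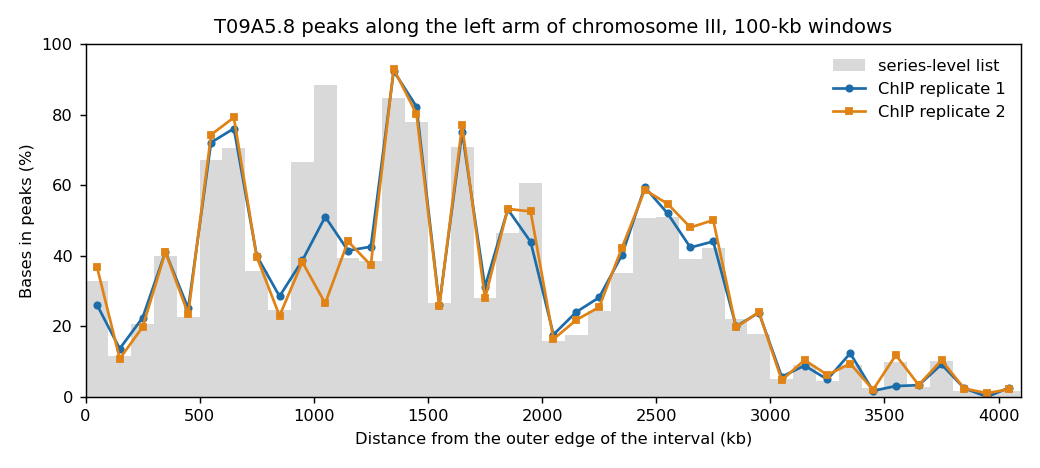
Share of bases in peaks (y axis, %) in 100-kb windows against the distance from the outer edge of the interval (x axis, kb), for ChIP replicate 1 (circles), ChIP replicate 2 (squares) and the series-level list (grey area). The replicates differed by at most 5 percentage points in 33 of the 41 windows, coverage was below 13% in both replicates in every window from 3000 kb inward, and the grey area stood far above both replicates in the windows that start at 900 and 1000 kb.

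The replicates traced the same peaks and troughs with few exceptions. Their coverage differed by 5 percentage points or less in 33 of the 41 windows, and by more than 10 in 2. The first of the 2 was the outermost window, from 500001 to 600000, with 26.1% in replicate 1 and 36.9% in replicate 2. The other was 1500001 to 1600000, with 51.0% in replicate 1 and 26.5% in replicate 2.

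Sites on this arm ran from 994 to 40422 bp in width, with a median of 3158 bp and quartiles of 1862 and 6052 bp. All the other sites of the genome had a median width of 2569 bp and quartiles of 1666 and 4654 bp. Of the 257 sites, 32 were wider than 10 kb, or 12.5% (95% Wilson interval 8.96 to 17.0), against 7.64% of all sites. Counted by the peaks of a single replicate the shares were lower, with 8.16% on the arm and 5.25% over the whole list in replicate 1, and 9.35% on the arm and 5.33% over the whole list in replicate 2. Such sites made up 11.1% of sites on the right arm of V and 19.2% (95% Wilson interval 10.8 to 31.9) of the 52 sites in the terminal 500 kb at the left end of III. On the arm the 32 wide sites held 40.8% of the site bases. The widest 3 were 1910608 to 1951029 with 40422 bp, 1857038 to 1887365 with 30328 bp and 2189150 to 2217207 with 28058 bp. The next was 1161871 to 1189925 with 28055 bp. The sites 1419677 to 1442359, 1021067 to 1043235, 1961372 to 1983492 and 1812621 to 1834021 followed, with 22683, 22169, 22121 and 21401 bp. The intervals on such shares reflect counting error alone, and neighbouring sites are not independent.

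Of these 8 widest sites, 4 lay in a single dense block. Neighbouring sites were joined into a block where the gap between them was at most 3 kb, a distance chosen after the values were seen. The longest block spanned 179622 bp, from 1803871 to 1983492, held 10 sites and lay 95.6% in sites. Its 10 sites had a median score of 3100 in each replicate, and 6 of them scored 3100 in both. The lowest-ranked site of the block by mean percentile, 1854915 to 1856856, scored 676 in replicate 1 and 732 in replicate 2 and was 1942 bp wide. The second block spanned 62885 bp, from 2088478 to 2151362, with 11 sites whose median scores were 698 in replicate 1 and 1108 in replicate 2. The third spanned 59376 bp, from 1021067 to 1080442, with 5 sites and a median score of 3100 in each replicate.

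The arm was made up of 134 such blocks, of which 81 were a single site. The 11 blocks of at least 5 sites held 66 sites, or 25.7%. The gap between neighbouring sites had a median of 3317 bp and quartiles of 755 and 9774 bp, and 72 of the 256 gaps (28.1%) were shorter than 1 kb. The 5 longest gaps were 167995 bp from 4336345 to 4504339, 119260 bp from 1449040 to 1568299, 102981 bp from 3515755 to 3618735, 101524 bp from 3916233 to 4017756 and 98007 bp from 4089618 to 4187624. Except for the gap that starts at 1449040, these lay in the inner part, and peaks of any list covered at most 1.69% of their bases.

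The scores of the sites were spread over nearly the whole range of the lists, without reaching either end. In replicate 1 they ran from 58.1 to 3209 with a median of 684, and in replicate 2 from 54.7 to 3214 with a median of 1032. The most frequent score in both lists was 3100, and few peaks exceeded it, so that it acted as an upper end of the scale. Of the 257 sites, 61 scored 3100 or more in both replicates, or 23.7% (95% Wilson interval 18.9 to 29.3), against 13.1% of all sites. In replicate 1, 62 sites reached 3100, and in replicate 2, 88 did. By the mean percentile of the 2 scores, the highest sites were 2390117 to 2396174, with 3209 in replicate 1 and 3100 in replicate 2, and 3163565 to 3167640, with 3185 in replicate 1 and 3100 in replicate 2. The ranks from there on were tied at 3100 in both lists, so their order has no meaning. In order of position the first 6 of the tied sites were 763491 to 776395, 786994 to 793271, 801267 to 814102, 842449 to 845977, 874115 to 877215 and 886704 to 891513. The inner part was not without such sites, since 3 of its 24 scored 3100 in both replicates, at 3618736 to 3624770, 4187625 to 4190984 and 4220580 to 4227143.

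The 4 lowest-ranked sites were all narrower than the median site of the arm. They were 2006822 to 2009275, with scores of 61.0 in replicate 1 and 97.0 in replicate 2, 3387760 to 3388828, with 93.6 and 69.0, 1988161 to 1989154, with 69.2 and 108, and 3914540 to 3916232, with 128 and 54.7. Their widths lay between 994 and 2454 bp. The third of these was the next site inward of the longest block, whose last site scored 3100 in replicate 1 and 660 in replicate 2. The first lay further inward, beyond 1989575 to 1990847, with 158 and 212, and 1997651 to 1998848, with 104 and 161.

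At the limits of the interval, the first members were 500894 to 503417, with scores of 531 in replicate 1 and 770 in replicate 2, and 517058 to 524863, with 2699 and 3100. The nearest site outside, toward the chromosome end, was 485855 to 487815, with 187 and 161. The last members were 4333955 to 4336344, with 662 and 455, and 4504340 to 4506785, with 292 and 241. The nearest site outside, toward the centre, was 4600009 to 4603004, with 517 and 1365. The terminal 500 kb beyond the outer limit was covered more densely still, with 54.8% ± 1.21 of its bases in peaks (SD, n = 2) and 52 sites.

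Wide sites scored higher. A site merged from several peaks is wider and takes the highest of their scores, so width and score are not independent at such sites. Across the 257 sites, which share their libraries and are not independent replicates, width and score had a Spearman rho of 0.784 in replicate 1 and 0.787 in replicate 2, given as a description. Over the 168 sites below 3100 in both replicates it was 0.607 in replicate 1 and 0.651 in replicate 2. Of the 75 sites of up to 2 kb, 0 reached 3100 in both replicates (upper end of the 95% Wilson interval 4.87%). In the wider classes, 12 of the 95 sites of 2 to 5 kb did (12.6%), as did 27 of the 55 sites of 5 to 10 kb (49.1%) and 22 of the 32 wider ones (68.8%). Because sites on the arm were wider than elsewhere, the share at 3100 was set against the other sites of the genome within each width class. It was 12.6% (95% Wilson interval 7.38 to 20.8) on the arm and 5.49% (4.33 to 6.94) elsewhere for 2 to 5 kb. For 5 to 10 kb it was 49.1% (36.4 to 61.9) on the arm and 41.5% (36.9 to 46.2) elsewhere. For wider sites it was 68.8% (51.4 to 82.0) on the arm and 49.0% (42.3 to 55.8) elsewhere. The share was higher on the arm in each of these 3 classes, and the intervals overlapped for 5 to 10 kb and for the wider sites. The difference was not tested.

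**Figure D2:**
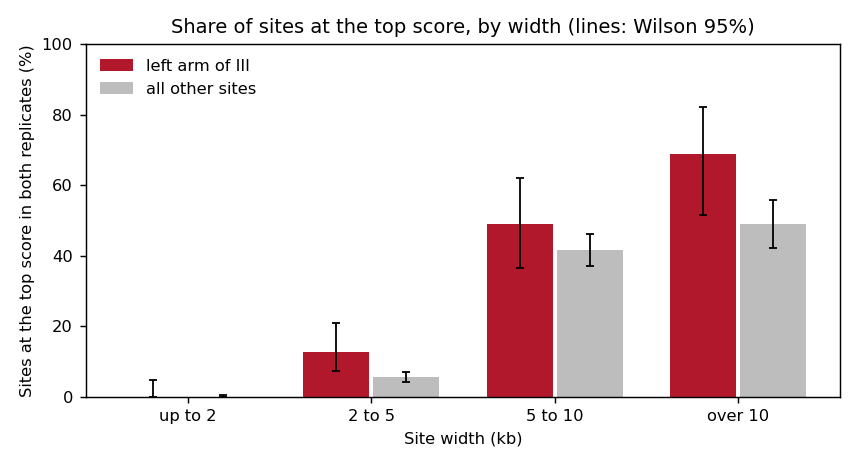
Share of sites that scored 3100 or more in both replicates (y axis, %) by site width (x axis, kb), for the left arm of III (red) and all other sites of the genome (grey), with lines for the 95% Wilson intervals. The share grew with width in both sets and reached 68.8% on the arm and 49.0% elsewhere for widths over 10 kb.

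The replicates ranked the sites of the arm alike. Over the 257 sites, the correlation of their scores was 0.923 by Pearson and 0.906 by Spearman, as a description. Over the 168 sites below 3100 in both replicates the Spearman rho was 0.771. Replicate 2 gave the higher score at 151 sites, replicate 1 at 47, and the scores were equal at 59. Among the 168 sites below 3100 in both, the median ratio of the score in replicate 2 to that in replicate 1 was 1.39, and over the same kind of sites elsewhere it was 1.44. The offset between the replicates was thus of similar size on the arm and off it.

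A few sites departed from it. At 7 sites (2.72%) the score in replicate 2 was over 5 times that in replicate 1, near the 2.76% of all sites. The reverse was seen at 0 sites of the arm and at 0.417% of all sites. The widest departure was at 4253689 to 4257470 in the inner part, with 130 in replicate 1 and 1257 in replicate 2. The next were 3203116 to 3208038, with 235 in replicate 1 and 1815 in replicate 2, and 1129122 to 1130810, with 70.3 and 534. In the other direction, the site 1961372 to 1983492, which closes the longest block, scored 3100 in replicate 1 and 660 in replicate 2. It consisted of 2 peaks in replicate 1 and 1 in replicate 2. These sites were chosen after their values were seen.

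**Figure D3:**
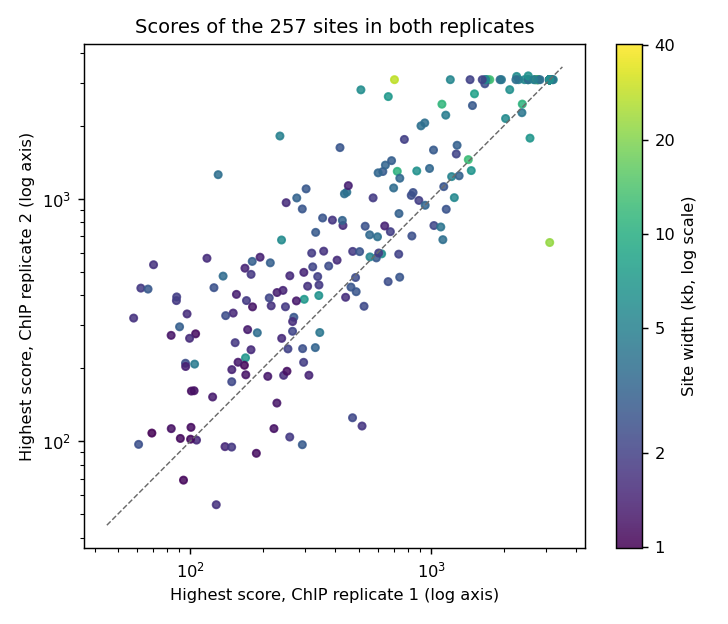
Highest score of each of the 257 sites in ChIP replicate 1 (x axis, log scale) and ChIP replicate 2 (y axis, log scale), coloured by site width in kb on a log scale, with a dashed line at equal scores. The 61 sites at or above 3100 in both replicates form the cluster at the upper right, and 151 points lie above the line against 47 below it.

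The borders of the sites were placed closely by both replicates. At 205 sites (79.8%) each replicate had exactly 1 peak, against 85.8% of all sites, and there the left edges of the 2 peaks differed by a median of 81 bp and the right edges by 77 bp. Elsewhere in the genome the medians were 84 and 89 bp. Of the 410 edges on the arm, 239 (58.3%) were within 100 bp of each other, against 55.5% elsewhere, 36 differed by more than 500 bp, and the largest difference was 1385 bp. At the other 52 sites a replicate divided the span into several peaks. Replicate 1 had more peaks than replicate 2 at 29 of them and replicate 2 more at 19, while 4 had equal numbers above 1. The largest number of peaks in 1 replicate was at 1118861 to 1129117, with 4 in replicate 1 and 1 in replicate 2.

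Some peaks of the arm were found in a single replicate. Of the 331 peaks of replicate 1, 295 (89.1%) had a counterpart in replicate 2, against 90.8% over the whole list. Of the 321 of replicate 2, 283 (88.2%) had a counterpart in replicate 1, against 83.8% over the whole list. The arm was thus near the rest of the genome in this respect. The unshared peaks were weak and narrow for the most part, with median scores of 92.0 for the 36 of replicate 1 and 109 for the 38 of replicate 2, and median widths of 1125 and 1119 bp in replicates 1 and 2. The shared peaks had median scores of 662 in replicate 1 and 1008 in replicate 2. All 38 of the unshared peaks of replicate 2 and 34 of the 36 of replicate 1 overlapped a peak of the series-level list, as did 98.2% of those of replicate 2 and 98.0% of those of replicate 1 over the whole lists.

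A small number of unshared peaks were strong. The strongest of replicate 1 was 1542935 to 1567880, which was 24946 bp wide and scored 3100. The nearest peak of replicate 2, from 1568300 to 1581186, began 419 bp beyond it and also scored 3100. The next unshared peaks of replicate 1 scored 397 or less, at 2165280 to 2167386, 1389782 to 1391713, 1716487 to 1722118 and 2011158 to 2014292. In replicate 2 the strongest unshared peaks lay side by side in the inner part, at 4048220 to 4051475 with a score of 1804 and at 4042714 to 4048092 with a score of 1591. The others were 2477796 to 2480002 with 622, 994669 to 996797 with 428 and 3288515 to 3290036 with 315. The pair in the inner part accounted for most of the difference between replicates in the window from 4000001 to 4100000, where peaks covered 3.05% of the bases in replicate 1 and 11.8% in replicate 2.

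The series-level peaks of the arm were more numerous and narrower than those of the replicates. They had a median width of 393 bp and a median score of 7.87, on a scale that differs from that of the replicate lists. Of the 1320, 757 (57.3%, 95% Wilson interval 54.7 to 60.0) overlapped peaks of both replicates, against 53.8% of the whole list. Another 108 overlapped replicate 1 alone, 134 overlapped replicate 2 alone, and 321 (24.3%, 22.1 to 26.7) overlapped neither, against 26.8% of the whole list. Median scores were 13.5 for the peaks seen in both replicates and 4.76 for those without any replicate peak. The shares were not tested, because a list made for the same study cannot be taken as independent of the replicate lists.

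Every one of the 257 sites overlapped at least 1 series-level peak, against 99.8% of all sites, with a median of 2 and a maximum of 13. Exactly 1 was overlapped by 70 sites (27.2%), against 29.5% of all sites, so the arm was near the rest of the genome in these counts. Series-level peaks covered 81.5% of the site bases. The highest series-level score within a site had a median of 23.0 over the arm and 17.4 over the other sites of the genome. At the 61 sites with 3100 or more in both replicates it ran from 26.2 to 159, so the series-level score separated sites that the replicate scores could not. By this score the first 5 sites were 1910608 to 1951029 with 159, 1857038 to 1887365 with 132, 1083554 to 1096872 with 125, 1207558 to 1226909 with 114 and 1953108 to 1961343 with 113. The last of these was 8236 bp wide and the others between 13319 and 40422 bp, and 3 of the 5 lay in the longest block. The widest site, 40422 bp, overlapped only 2 series-level peaks, whereas the second, 30328 bp, overlapped 13.

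When gaps of at most 500 bp were bridged, the series-level peaks formed 508 runs on the arm, 225 of them a single peak, with a median length of 1022 bp. Of the 33 runs longer than 10 kb, 30 lay over 90% within sites. Of the other 3, 2 touched no site, and the longest run of all was among them. It spanned 84792 bp from 1468806 to 1553597 and filled most of the second-longest gap between sites, where series-level peaks covered 81.7% of the bases, peaks of replicate 1 covered 20.9% and those of replicate 2 covered 0%. The strong unshared peak of replicate 1 overlapped the last 10663 bp of the run and reached on toward the next site. The next runs were 39894 bp from 1910703 to 1950596 and 32799 bp from 1857394 to 1890192, which lay 100% and 99.9% in sites.

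The 5 highest-scoring series-level peaks found in neither replicate all lay in the longest run. They were 1526239 to 1535059 with a score of 140, 1514536 to 1525756 with 138, 1485224 to 1508774 with 117, 1471467 to 1474204 with 88.6 and 1535117 to 1542604 with 78.5. The third of these was 23551 bp wide. For scale, the 61 sites with 3100 or more in both replicates had a median series-level score of 71.1. The windows from 1400001 to 1500000 and from 1500001 to 1600000 were the only 2 of the 41 in which series-level coverage exceeded the mean of the replicates by more than 20 percentage points. In the second of them the series-level list covered 88.4% of the bases, replicate 1 covered 51.0% and replicate 2 covered 26.5%. The part that mappability, copy number and input reads play in this stretch was not tested.

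**Figure D4:**
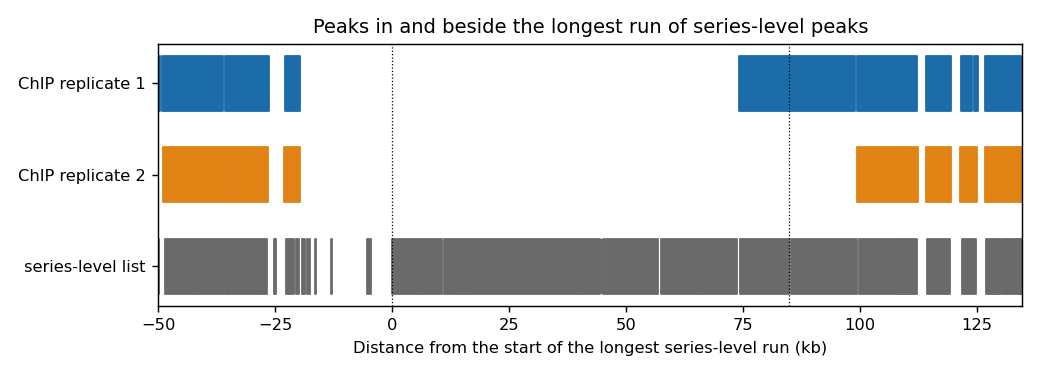
Peaks of ChIP replicate 1 (top), ChIP replicate 2 (middle) and the series-level list (bottom) against the distance from the start of the longest series-level run (x axis, kb), whose ends are marked by dotted lines. Within the run of 84792 bp, replicate 1 has a single peak that enters from the right and replicate 2 has none, while all 3 lists have peaks on both flanks.

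The arm was then set beside the other arms of chromosomes II to V, cut in the same way. Its 62.8 sites per Mb were close to the 62.1 of the left arm of IV and somewhat above the 57.3 of the right arm of V, and they exceeded the 49.6 of the right arm of III. The other 7 arms ranged from 21.6 to 62.1 with a median of 43.1. Peaks gave the same picture, with 79.6 ± 1.73 per Mb on the left arm of III, 76.6 ± 2.25 on the left arm of IV, 73.6 ± 0.983 on the right arm of V and 60.0 ± 2.94 on the right arm of III (SD, n = 2). The gap to the left arm of IV was of the size of the spread between replicates. When the outer of 4 equal parts were taken as arms, the left arm of III had 79.1 sites per Mb and the left arm of IV had 80.3, so the order of these arms depends on the division.

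In covered length the arm stood further from the others than in the number of sites. Peaks covered 32.4% of its bases in each replicate, 28.9% ± 0.0674 of the right arm of V, 24.8% ± 1.32 of the left arm of IV, 18.9% ± 1.42 of the left arm of II and 15.1% ± 0.578 of the right arm of III (SD, n = 2). Against the right arm of the same chromosome, coverage on the left arm was 2.14 ± 0.0817 times as high, and against the left arm of IV it was 1.31 ± 0.0696 times as high (SD, n = 2). With the left arm of IV this went with wider sites rather than more of them, since the mean width of a site was 5116 bp on the left arm of III and 4032 bp on the left arm of IV. The left arm of III and the right arm of V had sites of nearly the same width, with medians of 3158 bp on the left arm of III and 3185 bp on the right arm of V. In the series-level list the order of these last arms was the opposite, with 32.4% on the left arm of III and 36.1% on the right arm of V.

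The share of sites at 3100 in both replicates was 23.7% on the left arm of III and between 8.59% and 13.5% on the other 7 arms. In the adjoining terminal 500 kb at the left end of III it was nearly the same, 23.1% (95% Wilson interval 13.7 to 36.1) of 52 sites. On the right arm of V, where sites were as wide, it was 10.2% (95% Wilson interval 7.55 to 13.7). Chromosome centres had far fewer sites, and their shares were 21.7% (13.1 to 33.6) of 60 sites on IV, 20.3% (12.7 to 30.8) of 74 on III, 16.2% (9.28 to 26.7) of 68 on V and 11.1% (5.19 to 22.2) of 54 on II. No test between regions was run, so these differences are set only against the spread between replicates or beside their intervals.

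**Figure D5:**
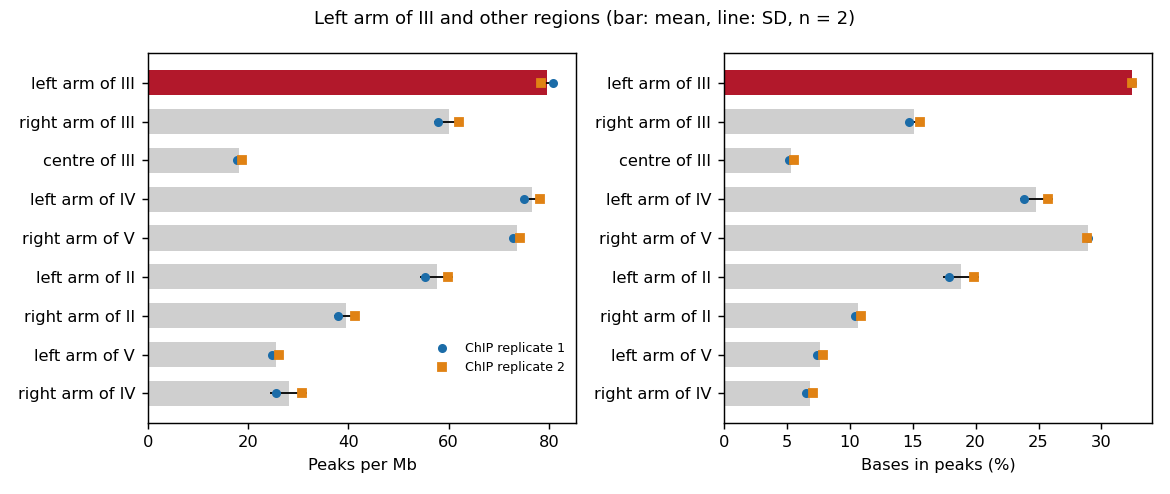
Peaks per Mb (left) and share of bases in peaks (right, %) on the left arm of III (red) and on other regions of chromosomes II to V (grey), with bars for the mean, lines for the SD (n = 2), circles for ChIP replicate 1 and squares for ChIP replicate 2. The left arm of III had 79.6 peaks per Mb, close to the 76.6 of the left arm of IV, and 32.4% of its bases in peaks, against 24.8% on the left arm of IV and 28.9% on the right arm of V.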

How the data were processed

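T09A5.8 was profiled by ChIP-seq, and 3 peak lists were used, namely those of ChIP replicates 1 and 2 and one deposited for the series. Per the file headers and source columns, the authors used MACS for the replicate lists, MACS v2 for the series-level one, and WormBase build WS220 for all. Not given in the sources used here were the aligner, the thresholds, the use of input and any pooling of replicates. Each deposited peak has a score, whose definition no header states, and other values per peak are only its first and last base. A list records where enrichment was called, which is no measure of the amount bound, and it says nothing of uncalled regions. Depth is unknown.

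Chromosome lengths were the largest peak end in any list. Sites were merged spans of peaks overlapping by at least 1 bp, assigned by midpoint. Coverage counted bases. Shares have 95% Wilson intervals, and replicate values are mean and SD. No test between regions was run. Sites were named by fixed ranks (score percentile, width, series-level score, limits, gaps, windows, runs, unshared peaks). The members, lists and rules were chosen with earlier results of these data known. Site building was checked on simulated lists. No sequence and no gene positions were used, since the gene names belong to another build (WBcel235). Alternatives were a 50% overlap, peaks above the median score, each replicate alone, other arm limits and joining across 1 kb. Python 3.11.15, numpy 2.4.6, pandas 2.3.3, scipy 1.17.1 and matplotlib 3.10.9 were used.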

Additional observations from a re-analysis of the deposited data

How the results depend on the processing

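A filter that removed the lower-scoring part of each list, up to its median, left 155 sites, 37.9 per Mb, over 26.7% of the arm. Of these sites, 20.6% were wider than 10 kb and 39.4% scored 3100 or more in both replicates. The filter itself shortened each list. The ratio of sites per Mb on the left to the right arm of III was 1.27, and 1.55 with this filter, and the ratio of the left arm of III to the median of the other 7 arms was 1.46, and 1.74 with it. With the outer of 4 equal parts as arms the values were 79.1 sites per Mb and 42.4% covered. With the terminal 500 kb included they were 67.3 per Mb and 34.6%, and the ratios were 1.36 and 1.61. When peaks had to share 50% of the shorter one, 32.06% was covered. With either replicate left out, and so with merged peaks of the other alone, there were 78.4 to 80.8 per Mb over 32.427% to 32.429%, the share wider than 10 kb was 8.16% to 9.35%, the ratios were 1.26 to 1.40 and 1.31 to 1.46, series-level peaks within the spans made up 65.5% to 67.5% (63.9% for the sites), and the most covered window reached 92.3% to 93.0%. This last alternative was added after the data were seen. The longest run of series-level peaks was 112238 bp when joined across 1 kb, and the rho of replicate scores was 0.771 below 3100. No direction between arms reversed in the ratios above. No paired analysis was possible because values were used for 1 group only, so ChIP and input replicates of the same number could not be set against each other. Ratios of peak coverage between arms were formed within each ChIP replicate. Without depth, the reads behind weak unshared peaks could not be compared.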

Other observations

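A second, shorter stretch of the left arm of III resembled the longest series-level run, and it was chosen after its values were seen. Between the sites 2457850 to 2465318 and 2480724 to 2486715, each with a score of 3100 in both replicates, lay a gap of 15405 bp from 2465319 to 2480723. Series-level peaks covered 81.5% of this gap, a single peak of replicate 2 covered 14.3%, and replicate 1 had 0%. Of the 11 series-level peaks in the gap, 9 overlapped no replicate peak. The widest, 2472477 to 2477110, was 4634 bp wide and scored 19.6, which is below the median of 23.0 over the sites of the arm, whereas the strongest peak of the longest run scored 140.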
